A study of Mus musculus with 6 samples.

Results

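The 10 genes described here encode the COPII coat, and among them Sec23a is described in the literature as a target of the miR-200 family. Members were found by gene symbol. All probe sets on the array whose single annotated symbol is Sec23a, Sec23b, Sec24a, Sec24b, Sec24c, Sec24d, Sar1a, Sar1b, Sec13 or Sec31a were taken, which gave 14 of 34945 single-symbol probe sets and 10 of 18193 genes. All 10 were among the 9997 genes bright enough to be tested. Transcripts were measured on 6 Affymetrix MOE430 2.0 arrays of A2.miR200c mouse ES cells, which carry miR-200c and miR-141 behind a doxycycline-responsive promoter. The cells differentiated as embryoid bodies in Petri dishes. Untreated cultures received no agent, while induced cultures were given doxycycline at 500 ng/mL on day 2 and again on day 4. Days 3, 4 and 5 were sampled, with 1 array for each treatment and day. Both groups come from the same line, so the untreated cultures carry the inducible locus as well. The line was made from A2lox ES cells by Cre-mediated insertion and had been kept on feeder fibroblasts, with a feeder-free passage before differentiation. No line without the inducible locus was treated on these arrays, so an effect of doxycycline and an effect of the microRNAs cannot be told apart.

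COPII is the protein coat that buds vesicles from the endoplasmic reticulum (ER) and sends newly made secretory and membrane proteins towards the Golgi. A Sar1 GTPase is switched on at the ER membrane and recruits the inner coat, in which Sec23 stimulates GTP hydrolysis by Sar1 and Sec24 binds the cargo. Sec13 and Sec31 then assemble around it as the outer cage. Mammals carry paralogs of most subunits, and Sec23a and Sec23b are the pair for Sec23.

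The microRNAs that doxycycline induces are shown first, since their seeds (bases 2 to 8, in capitals) are what pairs with a target transcript. The mature 3p arms of all 5 family members, taken from RefSeq on build GRCm38.p6, fall into 2 seed groups. The induced pair holds 1 member of each group, and both lie on the minus strand of chromosome 6, miR-200c at chr6:124718324-124718346 and miR-141 at chr6:124717917-124717938. The other 3 lie on the minus strand of chromosome 4 and are printed for comparison.
mmu-miR-200c-3p: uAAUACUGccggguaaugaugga
mmu-miR-200b-3p: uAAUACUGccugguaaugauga
mmu-miR-429-3p: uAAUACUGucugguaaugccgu
mmu-miR-141-3p: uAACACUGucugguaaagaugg
mmu-miR-200a-3p: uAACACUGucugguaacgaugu
The seeds of the induced pair differ at 1 of 7 positions, C4U from miR-141 to miR-200c, counted from 1 at the 5′ end. No transcript sequence was searched for matches to them here.

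Median probe set intensity lay between 34.51 and 36.94 on the 6 arrays, and 48.8 to 50.1% of probe sets were above a background of 36.8, the 95th percentile over 77 genes of chemosensory receptors. The ES cell genes Zfp42, Dppa2, Dppa4, Pou5f1, Nanog and Sox2 were all above background. Their summed intensity went from 19218 on day 3 to 3274 on day 5 untreated and from 18721 to 7605 induced. This sum joins unlike genes. The day 5 difference by induction was largest for Nanog (1.85), followed by Pou5f1 (1.49) and Sox2 (0.94). It was smaller for Zfp42 (0.43) and Dppa4 (0.28), and Dppa2 was slightly lower with induction (-0.16). Each value of a single day rests on 1 array and has no error of its own. Differences are on the log2(intensity + 50) scale, and the SD printed with a mean is taken across the 3 days.

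Sec23a (Entrez Gene 20334), the inner coat subunit that activates the GTPase of Sar1, had a lower intensity in the induced culture on each day. The untreated arrays read 1052, 1215 and 1745 on days 3, 4 and 5, and the induced arrays read 744, 829 and 1075. The induced intensity was thus 70.7%, 68.3% and 61.6% of the untreated one. Within every day the induced array was the lower, but across days the treatments overlapped, because Sec23a went up with time in both. Ordered by intensity, untreated day 5 stood highest, followed by untreated day 4, induced day 5, untreated day 3, induced day 4 and induced day 3. The induced culture on day 5 was at 102% of the untreated culture on day 3, a log2 difference of 0.03.

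**Figure D1:**
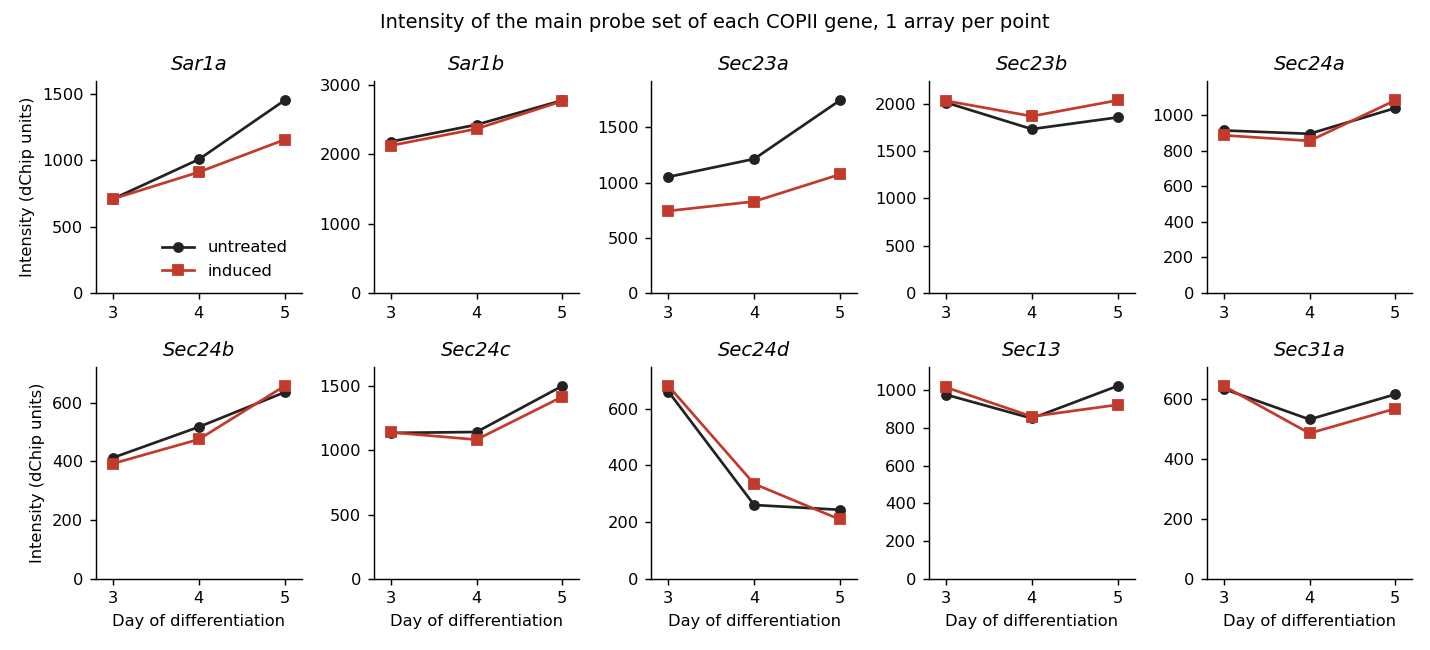
Intensity in dChip units of the main probe set of each COPII gene (vertical axes, linear, from 0) on days 3, 4 and 5 (horizontal axes), untreated in black circles and induced in red squares, 1 array per point. Sec23a reads 1052, 1215 and 1745 untreated against 744, 829 and 1075 induced, while Sec24d goes down in both treatments.

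The mean log2 difference of Sec23a was -0.56 ± 0.10 (SD, n = 3 days), with a limma 95% interval of -0.73 to -0.38, which is 1.47-fold lower (1.30 to 1.66). The daily differences were -0.47, -0.52 and -0.67. Of all 9997 genes tested, Sec23a had the 3rd smallest p in limma (unadjusted p = 0.000459), but adjusted over all genes it did not pass (adjusted p = 0.573). No gene did, so that 0% were called lower and 0% higher, while 842 genes (8.42%) had an unadjusted p under 0.05. Sec23a was the 1 COPII gene of 10 among these 842.

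In that fit a difference that grows from day to day adds to the residual. In a fit with a term for treatment by linear day, which leaves 1 residual degree of freedom, the same mean difference passed (adjusted p = 0.029). The SE of Sec23a moved little, from 0.069 to 0.063, and its unadjusted limma p went from 0.000459 to 0.000139. Over all genes 0 were called in the first fit and 145 with the added term, and the adjustment depends on all genes. In this fit 0.42% of genes were called lower and 1.03% higher, and of the 10 COPII genes Sec23a was called lower and none of the others passed. The change of the Sec23a difference per day was -0.10 ± 0.08 (SE), with an adjusted p of 0.635 in limma.

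The difference of Sec23a was present on the first day measured. On day 3 there were 60 genes at or below its log2 difference, 172 on day 4 and 273 on day 5. The smallest of the daily Sec23a differences, 0.47 lower, was then used as a cutoff, which Sec23a meets by construction. Only 3 genes of 9997 were lower by at least this much on all 3 days together. Besides Sec23a these were Cfl2, which encodes an actin-severing cofilin (-0.998 ± 0.28, SD, n = 3 days), and Dennd5a (-0.70 ± 0.19), both named after their values were seen. The SD of 0.10 of Sec23a was below the median over all genes of 0.13.

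Markers of cell types differed between the treatments too, and their part in the Sec23a difference was not tested. On day 5 all 7 of 7 epithelial markers had a higher intensity with induction, and their summed intensity ranged from 16886 to 19374 untreated and from 19067 to 30841 induced. The untreated sum joins opposite changes. From day 3 to day 5 untreated, Krt8 rose from 767 to 7013 and Krt18 from 1755 to 6278. Cdh1 (7232 to 3963), Epcam (3233 to 649), Esrp1 (1734 to 520), Cldn6 and Cldn7 fell. Of the mesoderm markers 5 of 6 had a probe set, all 5 were lower on each day, and their sum ranged from 230 to 11848 untreated and from 206 to 9109 induced. On day 3, when Sec23a was at 70.7% of its untreated intensity, the mesoderm sum read 230 untreated and 206 induced. Aplnr, a mesoderm receptor, was below background on both arrays of that day. The epithelial sum of day 3 read 16886 untreated and 19067 induced, with log2 differences from -0.02 (Epcam) to 0.46 (Krt18). Feeder fibroblast markers summed to between 190 and 873 untreated and between 176 and 294 induced, and Lox, 1 of the 6, was below background on every array. The summed intensity of the 4 housekeeping genes with a probe set stayed between 23909 and 26091 untreated and between 24245 and 25877 induced. Actb and Pgk1 were the brightest of them. B2m did not stay level and went from 716 on day 3 to 1375 on day 5 untreated and from 684 to 1744 induced. In RNA of whole cultures, fewer cells of a type and less RNA per cell cannot be told apart.

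Sec23b (Entrez Gene 27054), the paralog that can take the place of Sec23a in the coat, was not lower on any day. The untreated arrays read 2012, 1732 and 1855 on days 3, 4 and 5, and the induced arrays read 2030, 1868 and 2036. The induced array was the higher on each day, and these differences averaged 0.08 ± 0.06 (SD, n = 3 days; limma 95% interval -0.05 to 0.22; adjusted p = 0.638). Set against each other, the difference of Sec23a was lower than that of Sec23b by 0.49 on day 3, 0.63 on day 4 and 0.80 on day 5, a mean of -0.64 ± 0.16 (SD, n = 3 days).

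The same comparison was made with all 9 other members. The difference of Sec23a was the lower on all 3 days in each of the 9, with mean gaps from -0.41 ± 0.06 for Sar1a to -0.64 for Sec23b. The gap to Sec13 was nearly the same on each day (-0.53 ± 0.0066). A two-sided exact sign-flip test over 3 days cannot go below p = 0.25, and each of the 9 comparisons gave that value (0.25 adjusted over the 9). On day 3 the 9 others lay between -0.06 (Sec24b) and 0.05 (Sec13), with a median of 0.01 where the median of all genes was 0.00475. They lay between -0.14 (Sar1a) and 0.31 (Sec24d) on day 4, and between -0.32 (Sar1a) and 0.13 (Sec23b) on day 5.

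**Figure D2:**
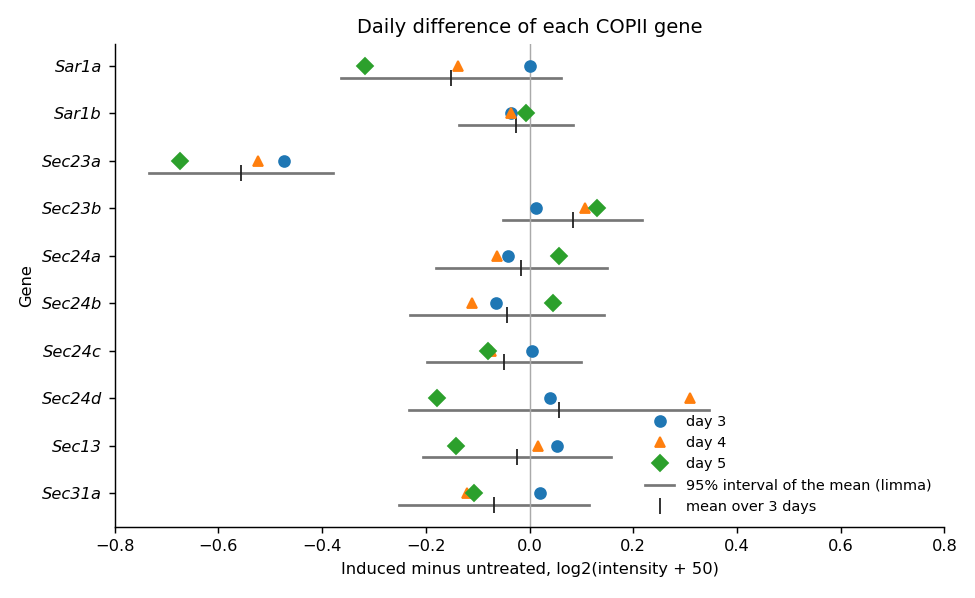
Induced minus untreated difference of each COPII gene on the log2(intensity + 50) scale (horizontal axis) on day 3 (blue circles), day 4 (orange triangles) and day 5 (green diamonds), with the mean over the days (black tick) and its limma 95% interval (grey line). The 3 points of Sec23a, at -0.47, -0.52 and -0.67, lie to the left of every point of the other 9 genes.

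Counted by size alone, 1 of the 30 daily differences of COPII genes reached 1.5-fold, that of Sec23a on day 5 at 1.60-fold. The shares of all genes at this size depend on the offset, most of all on day 3, when 29 genes counted at the offset of 50, 111 at an offset of 16 and 11 at an offset of 100. On day 5, 3.51% of all genes tested were at least 1.5-fold lower and 5.24% higher. On day 3, when Sec23a was 1.39-fold lower, 0.2% of genes were at least 1.5-fold lower and 0.09% higher, and on day 4, when it was 1.44-fold lower, 1.39% and 1.03%. Over all days 2 COPII genes, Sec23a and Sar1b, were lower on each day and 1, Sec23b, was higher on each day. Of all genes 14.3% were lower and 19.3% higher on each day, so these counts are near those of all genes. The median mean difference of the 10 COPII genes was -0.03, against 0.01 for all genes.

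The Sar1 GTPases start coat assembly. Sar1a (Entrez Gene 20224) read 709.74, 1007 and 1452 in the untreated cultures of days 3, 4 and 5 and 709.75, 911 and 1156 in the induced ones. Its daily differences went from 0 on day 3 to -0.14 and -0.32, with a mean of -0.15 ± 0.16 (SD, n = 3 days; limma 95% interval -0.36 to 0.06; adjusted p = 0.618). The other probe set of Sar1a gave differences of -0.19, 0.19 and -0.03, so the probe sets disagree on the direction on day 4. Sar1b (Entrez Gene 66397) read 2179, 2422 and 2773 untreated and 2123, 2363 and 2762 induced. Its induced and untreated arrays lay close together on each day, with a mean difference of -0.03 ± 0.02 and a limma 95% interval of -0.14 to 0.08.

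The Sec24 paralogs form the cargo-binding side of the inner coat and differ in the sorting signals they recognise. Sec24a read 912, 894 and 1038 in the untreated cultures of days 3, 4 and 5 and 885, 854 and 1081 in the induced ones. Sec24b read 413, 517 and 635 untreated and 392, 475 and 657 induced, and Sec24c read 1135, 1142 and 1500 untreated and 1140, 1083 and 1417 induced. For these 3 paralogs the limma 95% intervals of the mean difference spanned 0 and reached from -0.18 to 0.15 for Sec24a, -0.23 to 0.14 for Sec24b and -0.20 to 0.10 for Sec24c. Sec24d read 661, 261 and 244 untreated and 681, 335 and 209 induced. Its difference turned from 0.31 on day 4 to -0.18 on day 5, and the mean of 0.06 ± 0.25 (SD, n = 3 days) was smaller than its spread. Second probe sets of Sec24a, Sec24b and Sec24c read far less, with means of 38.2, 71.5 and 41.1 over the arrays, and those of Sec24a and Sec24c were above background on 3 of 6 arrays each.

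The outer cage genes differed little between treatments. Sec13 (Entrez Gene 110379), whose protein also serves in the nuclear pore, read 976, 850 and 1022 in the untreated cultures of days 3, 4 and 5 and 1014, 860 and 922 in the induced ones. Its mean difference was -0.02 ± 0.10 (SD, n = 3 days; limma 95% interval -0.21 to 0.16). Sec31a (Entrez Gene 69162) read 635, 533 and 617 untreated and 645, 486 and 569 induced, with a mean difference of -0.07 ± 0.08 and an interval of -0.25 to 0.11. Both were slightly higher in the induced culture on day 3 and lower on day 5.

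**Figure D3:**
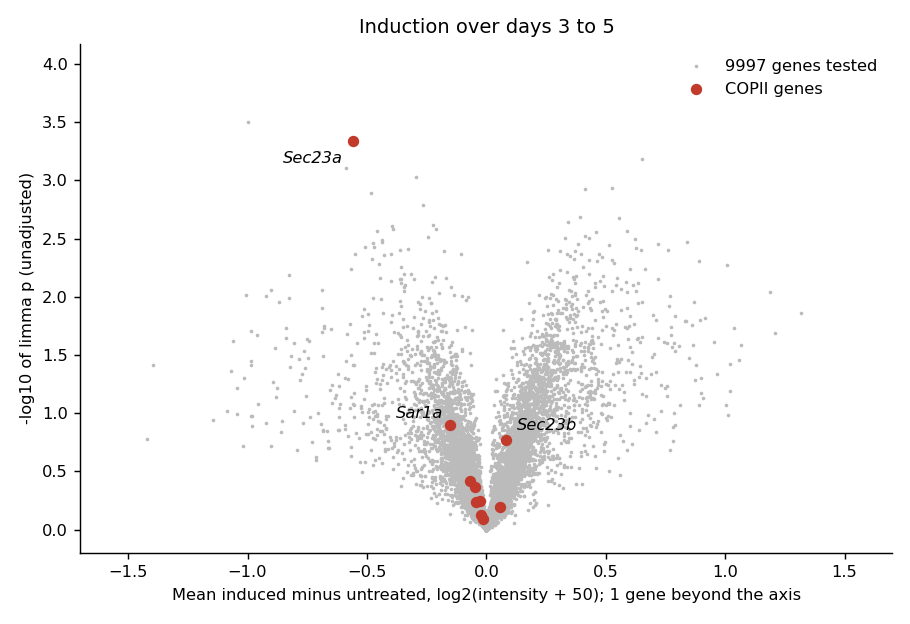
Mean induced minus untreated difference over days 3 to 5 on the log2(intensity + 50) scale (horizontal axis) against -log10 of the unadjusted limma p (vertical axis) for the 9997 genes tested (grey) and the COPII genes (red), with 1 gene beyond the horizontal axis. Sec23a lies at -0.56 near the top, and the other 9 members lie within -0.15 and 0.08.

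How the coat genes changed with time was asked next, by comparing day 5 with day 3 over both treatments. Of the 10, limma called 5 higher on day 5 (Sec23a, Sec24b, Sec24c, Sar1a and Sar1b) and 1 lower (Sec24d), against 20.6% of all genes called higher and 19.2% lower. Sar1a rose most, by 0.82 ± 0.10 on the log2 scale (SE; adjusted p = 0.0050), or 1.77-fold. Sec24b rose by 0.62 ± 0.09 (adjusted p = 0.0073) and Sec23a by 0.60 ± 0.08 (adjusted p = 0.0070). Sar1b and Sec24c rose by 0.36 ± 0.05 (adjusted p = 0.0078) and 0.34 ± 0.07 (adjusted p = 0.018). The call of Sec24c was lost without day 4 (adjusted p = 0.062) and with the median of its probe sets, where the change was 0.08. The second probe set of Sar1a changed by 0.46, also upward.

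Sec24d was the COPII gene that fell, by 1.39 ± 0.14 on the log2 scale (SE; adjusted p = 0.0034), or 2.61-fold. Most of the decline lay between days 3 and 4, at -1.06 ± 0.14 (adjusted p = 0.029), with -0.33 ± 0.14 between days 4 and 5 (adjusted p = 0.182). Sec24d was the 1 COPII gene called in the first of these steps, where 4.54% of genes were lower and 4.44% higher. None of the 10 was called between days 4 and 5, where 2.33% were lower and 3.8% higher, and the smallest adjusted p there was 0.050 for Sec24c, just above the threshold, and 0.053 for Sec23a. The remaining 4 genes did not pass between days 3 and 5. Sec24a changed by 0.23 (adjusted p = 0.075), Sec23b by -0.06, Sec13 by -0.03 and Sec31a by -0.10.

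Taken by treatment, the change from day 3 to day 5 was closest between treatments for Sar1b, at 0.34 untreated and 0.37 induced, and farthest apart for Sar1a, at 0.98 and 0.67. The other probe set of Sar1a gave the opposite order, from 724 to 955 untreated and from 627 to 937 induced. Sec24d stood at -1.28 untreated and -1.49 induced, Sec23a at 0.70 and 0.50, and Sec13 at 0.06 and -0.13. Sec24b stood at 0.57 and 0.68. These are differences of 2 arrays each and carry no test. The change of the induction difference per day was tested for all genes in limma, and 0 of 9997 (0%) passed, with 1322 at an unadjusted p under 0.05. No COPII gene was among the 1322, and their adjusted p ran from 0.451 for Sar1a to 0.937 for Sar1b.

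**Figure D4:**
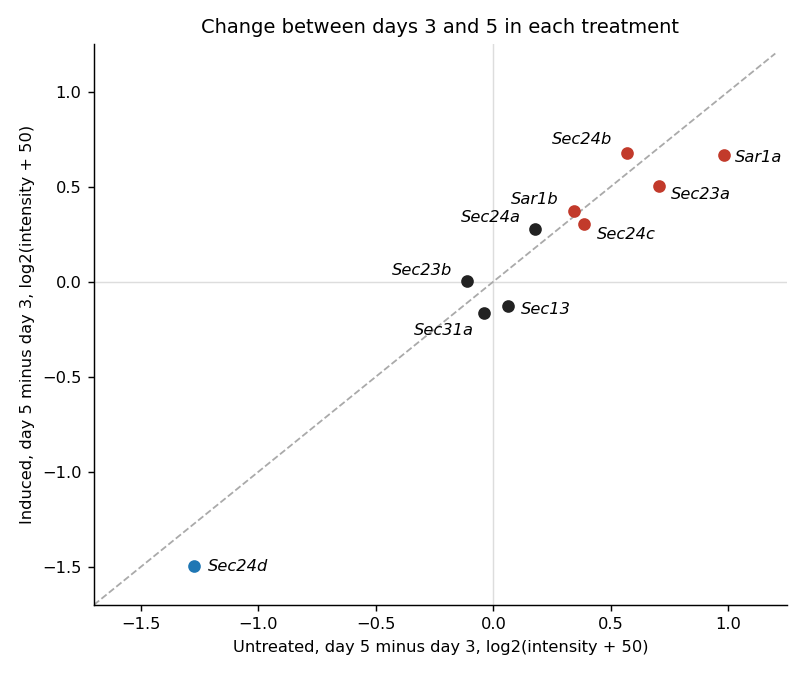
Change from day 3 to day 5 of each COPII gene on the log2(intensity + 50) scale, untreated on the horizontal axis and induced on the vertical axis, 2 arrays per value, with a dashed line at equal change. Genes that limma called higher over both treatments are red, Sec24d, called lower, is blue at -1.28 and -1.49, and those not called are black.

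Genes that work beside the COPII coat were followed in 5 lists. Since limma called 0% of all genes for induction in either direction, the absence of calls in these lists is no result about them, and they are described by their differences. Regulators of ER exit sites include Sec16a, Preb, which is the exchange factor for Sar1, and the collagen export receptor Mia3. Of 13 such genes 10 were tested, 4 were higher on all 3 days and 0 lower (19.3% and 14.3% of all genes), and the median difference was 0.03, against 0.01 over all genes. The largest differences there were those of Pef1 (0.18 ± 0.29, SD, n = 3 days), Klhl12 (0.14 ± 0.10) and Ddhd2 (0.14 ± 0.11). Klhl12 is an adaptor that leads to ubiquitination of Sec31, and Pef1 acts with it. Among tethers and SNAREs of the ER to Golgi step 20 were tested, with a median of -0.0048 and a range from -0.14 (Trappc5) to 0.14 (Trappc6a). Sec22b, a SNARE of this step, was at -0.13 ± 0.23.

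The 17 cargo receptors tested had a median of -0.04. Surf4, a receptor for soluble cargo, had the largest difference of them, at -0.23 ± 0.08 (SD, n = 3 days; adjusted p = 0.573). It read 933, 1717 and 1551 in the untreated cultures of days 3, 4 and 5 and 843, 1379 and 1315 in the induced ones, lower on each day. The p24 family genes Tmed4 (0.17 ± 0.07) and Tmed3 (0.16 ± 0.07) were higher on each day. The COPI coat, which runs the opposite way from the Golgi to the ER, had a median of -0.0061 over 9 genes, and its extremes were Copg2 at 0.16 ± 0.08 and Cope at -0.07 ± 0.14, with Arcn1 at -0.06 ± 0.08.

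ER stress genes and bZIP regulators were followed because Creb3l2 is known to activate Sec23a transcription in cartilage. The median difference of the 14 was -0.03. Creb3l2 read 39.2, 100.1 and 243 in the untreated cultures of days 3, 4 and 5 and 45.0, 80.5 and 148 in the induced ones. It was near background on day 3, and its mean difference of -0.22 ± 0.33 (SD, n = 3 days) was smaller than its spread. Creb3l1 stood at -0.29 ± 0.43 and Sdf2l1 at -0.14 ± 0.11.

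The lists differed in how they changed with time. On day 5 against day 3, when 20.6% of all genes were called higher and 19.2% lower, limma called 8 of 9 COPI genes higher and 0 lower, 7 of 17 cargo receptors higher and 0 lower, and 6 of 20 tethers and SNAREs higher and 0 lower. Of the 14 ER stress and bZIP regulators 3 were higher, among them Creb3l2 (1.39 ± 0.18, SE; adjusted p = 0.0056), and 2 were lower. Of the 10 exit site regulators 0 were higher and 1, Ddhd2, was lower (-0.77 ± 0.10; adjusted p = 0.0055). The median change was 0.37 for COPI, 0.32 for cargo receptors, 0.29 for the 10 COPII genes and 0.23 for tethers and SNAREs, where the median of all genes was 0.00262.

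Further genes known from the literature as targets of miR-200 were set beside Sec23a. The median difference of the 21 tested was -0.30, and 7 were lower and 2 higher on all 3 days, where 14.3% of all genes were lower and 19.3% higher. The lowest were Kdr (-1.07 ± 1.08, SD, n = 3 days), Nrp1 (-1.06 ± 0.89) and Cdh11 (-1.01 ± 0.66), whose daily differences were far more uneven than those of Sec23a. Kdr is also 1 of the mesoderm markers above. In limma over the 3 days 7 had an unadjusted p under 0.05, as did 8.42% of all genes. With treatment by linear day in the fit 3 were called lower, against 0.42% of all genes, namely Zeb2 (-0.87 ± 0.56), Cfl2 and Marcks (-0.30 ± 0.09), of which Zeb2 and Marcks were also named after their values were seen.

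**Figure D5:**
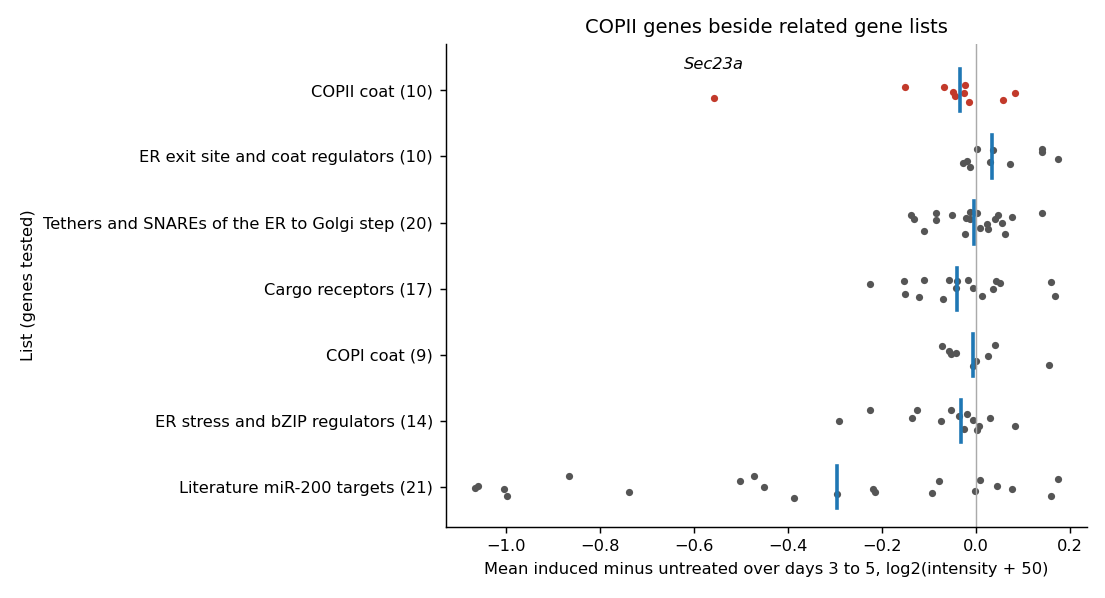
Mean induced minus untreated difference over days 3 to 5 on the log2(intensity + 50) scale (horizontal axis) of each gene tested, by list (vertical axis, number tested in brackets, points spread vertically for sight), COPII genes in red and list medians as blue bars. Sec23a lies at -0.56, while all genes tested in the 5 lists of the secretory pathway and ER stress lie between -0.29 and 0.18.

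The genes whose 6 log2 values, centred on their own mean, lay nearest to those of Sec23a were Lix1l, Zcchc24, Twist1, Fkbp7 and Sptssa, with root mean square distances from 0.11 to 0.13. Twist1, a transcription factor of mesenchyme, read 81.4, 120 and 212 in the untreated cultures of days 3, 4 and 5 and 68.1, 59.2 and 89.1 in the induced ones. Sptssa, a small subunit of serine palmitoyltransferase, the enzyme that starts sphingolipid synthesis, read 1257, 1547 and 2172 untreated and 1033, 1282 and 1577 induced. Fkbp7, an ER prolyl isomerase, had daily differences of -0.16, -0.27 and -0.67. All were lower on each day in the induced culture, which their selection by likeness to Sec23a largely fixes. Lix1l was above background only on the untreated array of day 5, so its distance depends on the offset. Of the COPII genes, Sar1a was nearest to Sec23a (0.23) and Sec24d farthest (0.88), with Sec23b at 0.42.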

How the data were processed

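The deposited table holds model-based intensities on a linear scale, 1 per probe set and array, which the authors normalized and modelled in DNA-Chip Analyzer (dChip, version not given in the sources used here). It carries no detection calls, and precision is limited by having 6 arrays. Of 45037 probe sets, 932 with several symbols and 9160 with none were left out. Each gene was represented by its probe set with the highest mean, as log2(intensity + 50), which damps differences of dim genes. Genes whose highest value reached the median of all gene values, 80.1, were tested.

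Tests used limma 3.58.1 in R 4.3.3 (lmFit, eBayes with an intensity trend, two-sided, Benjamini-Hochberg over all 9997 genes at 0.05). Induction and day were terms of one fit, with 2 residual and 3.05 prior degrees of freedom. For induction the days stand in for replicates, so its p-values rest on how much the daily induced minus untreated differences vary. Changes between days were tested against the same residual, and there the treatments stand in for replicates. The tests were checked on simulated data.

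Named were all members, the 3 genes of each of 6 lists with the largest differences, the 5 genes nearest to Sec23a, and markers. The members and lists were chosen with earlier results of these data known. Other genes are marked where named. Alternatives changed the offset, filter, scaling, probe set rule, variance trend, days, fit terms and fold.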

Additional observations from a re-analysis of the deposited data

How the results depend on the processing

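The Sec23a difference stayed short of the threshold under 12 of 13 alternatives, from -0.60 to -0.50, and passed in 1. Its sign was kept, but most alternatives could not have changed it. The filter, probe set rule, variance trend and fit terms left the estimate of -0.56 as it was. Leaving out a day could not turn the sign, because every daily difference was negative. With treatment by linear day added the Sec23a difference passed in limma (adjusted p = 0.029). The number of COPII genes called then went from 0 to 1, and that of all genes from 0 to 145. The adjusted p of Sec23a ran from 0.029 to 0.99997, with day left out of the fit. Leaving out a day, 0 to 2 genes were called for induction, the 2 without day 5. Those 2 did not include Sec23a (adjusted p = 0.356). The 9 gaps between Sec23a and the other members kept their sign under all 8 alternatives. Of these, median centring cannot change a gap, and leaving out a day could not reverse one, because every daily gap was negative. Day 5 minus day 3 called 3984 genes, and 2454 without day 4. It cannot be had without day 3 or day 5. An effect that changes per day was called for 0 genes, 11 with an offset of 100 and 2 with quantile normalization. Genes at least 1.5-fold apart on day 4 numbered 242, 391 with an offset of 16 and 159 with an offset of 100. At 2-fold, 0 daily COPII differences counted as apart instead of 1. Differences near 0 changed sign, none of them called. Sec24b went to 0.0044 with the median of its probe sets. Leaving out a day, Sec24a ranged from -0.0517 to 0.0075 (positive without day 4), Sec24d from -0.0697 (without day 4) to 0.17, and Sec13 from -0.0627 to 0.0344 (without day 5). With 1 array per treatment and day, a difference of single arrays carries no error. Sec23a, Sec23b, Sec24d, Sar1b, Sec13 and Sec31a have no second single-symbol probe set. Members whose second probe set is near background also have only their main probe set as a measure. No pairing other than by day was possible, because each treatment and day has 1 array.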
